A study of Mus musculus with 32 samples.

Results

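The 10 protein-coding genes described here belong to the mouse mitochondrial genome and were followed across 32 libraries of cerebral cortex: mt-Nd1, mt-Nd2, mt-Nd4, mt-Nd5, mt-Nd6, mt-Cytb, mt-Co1, mt-Co2, mt-Co3 and mt-Atp6. They were taken by symbol from a table of raw counts for 55401 genes, and all 10 members were found there and passed the filter on low counts. The tissue came from mice aged 6 weeks in 3 genotype groups. The group +/+ held 12 euploid mice, 6 labelled female and 6 male. The group Ts65Dn;Df(17)2 held 10 mice, 5 labelled female and 5 male. The group Dp(16)1/Df(16)8 held another 10, again 5 of each labelled sex. As background, Ts65Dn is a freestanding additional chromosome that carries part of mouse chromosome 16 orthologous to human chromosome 21 together with the centromeric end of chromosome 17. Dp(16)1 carries the chromosome 16 region as a duplication inside the chromosome itself. Df(17)2 and Df(16)8 are deficiencies, engineered losses on chromosomes 17 and 16, which bring the gene content of the 2 aneuploid groups closer together. The series set the dose of the additional genes apart from the presence of an additional chromosome. No group carried a treatment, and strain and parentage are not given in the sources used here. Libraries were made from total RNA after removal of ribosomal RNA.

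Mitochondrial DNA is a small circle, present in many copies per cell, whose heavy and light strands are each transcribed into long precursors that are cut into separate RNAs. Its protein-coding genes all encode core subunits of the respiratory chain and of ATP synthase, and the much larger number of remaining subunits comes from nuclear genes. Neurons depend heavily on this system for the ATP that drives ion pumps and synaptic transmission. Pieces of mitochondrial DNA have also been inserted into nuclear chromosomes during evolution, where they persist as pseudogenes.

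Each library held 5795479 to 11189548 counts, and the members took 2.17% to 3.39% of them. Expression is given as CPM, counts normalised to library size with TMM factors, which ran from 0.961 to 1.05. A library of the Dp(16)1/Df(16)8 group labelled female, replicate 2, held 14 counts of Xist and 696 of Ddx3y, against its label; leaving it out changed no call among the members. Markers of cortical excitatory neurons were present throughout, with none of 10 at 0, and their summed level was 1105 to 2207 CPM in +/+ (median 2028), 1063 to 1860 in Ts65Dn;Df(17)2 (median 1495) and 1086 to 2224 in Dp(16)1/Df(16)8 (median 1654). None of 14 markers of striatal neurons was at 0 either, and their sum ran from 208 to 3447 CPM in +/+ (median 644), from 764 to 3037 in Ts65Dn;Df(17)2 (median 2249) and from 282 to 3353 in Dp(16)1/Df(16)8 (median 2237). The titles carry numbers whose meaning is not given. They fall into 5 blocks of neighbouring numbers: Ts65Dn;Df(17)2 libraries are found in 27950 to 27951 and 32350 to 32373, Dp(16)1/Df(16)8 libraries in 32128 to 32252, 32333 to 32346 and 32395 to 32406, and +/+ libraries in each of the last 4 blocks. No block holds both aneuploid genotypes, so block and genotype cannot be told apart for that pair by direct comparison. Fits with blocks as terms compare that pair only through the +/+ libraries of the blocks. In whole tissue, fewer cells of a type and less RNA per cell cannot be told apart.

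The 6 printed sequences, with the 3 nuclear copies named beside them, show where members match a second place in the genome exactly and where they do not. They were read from the GENCODE M21 transcripts of GRCm38, 5′ to 3′ on the strand of the gene, and capitals mark bases that lie in an exact stretch shared with a nuclear pseudogene. In mt-Co1 (chrM:6354-6433, + strand) the shared stretch begins inside the gene, and in mt-Nd4 (chrM:11003-11082, + strand) it ends inside the gene. The first 60 bases of mt-Co2 (chrM:7013-7072, + strand) are also those of Gm28661 (chr1:24615506-24615565, − strand). The first 60 bases of mt-Atp6 (chrM:7927-7986, + strand) are those of Gm10925 (chr1:24614592-24614651, − strand), and those of mt-Co3 (chrM:8607-8666, + strand) are those of Gm28437 (chr1:24613912-24613971, − strand). The first 60 bases of mt-Nd6 (chrM:14011-14070, − strand) hold no shared base.
mt-Co1: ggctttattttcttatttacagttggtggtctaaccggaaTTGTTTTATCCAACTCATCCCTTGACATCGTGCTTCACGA
mt-Nd4: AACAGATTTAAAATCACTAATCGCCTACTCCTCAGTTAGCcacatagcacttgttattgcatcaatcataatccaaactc
mt-Co2 and Gm28661: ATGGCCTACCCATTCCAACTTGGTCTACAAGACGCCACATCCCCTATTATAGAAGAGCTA
mt-Atp6 and Gm10925: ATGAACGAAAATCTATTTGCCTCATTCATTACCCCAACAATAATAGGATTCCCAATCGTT
mt-Co3 and Gm28437: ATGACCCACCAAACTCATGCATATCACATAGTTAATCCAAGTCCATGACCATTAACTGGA
mt-Nd6: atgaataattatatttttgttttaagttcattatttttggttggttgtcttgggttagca

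The mt-Nd6 sequence also shows how this gene differs in base composition from the other members. It is the 1 member read from the opposite strand, and 28.1% of its bases are G and 5.97% are C. In the other members G made up 8.00% to 16.1% and C 23.8% to 27.7%.

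The 7 pseudogenes that hold the longest exact stretches lie next to each other on the minus strand of chromosome 1, from 24611535 to 24616197, a span of 4663 bases. Gm28661 matches 681 of the 684 bases of mt-Co2, Gm10925 matches 678 of the 681 bases of mt-Atp6, and Gm28437 matches 783 of the 784 bases of mt-Co3. Gm29216 matches 479 bases at the end of mt-Co1, from its base 1067 to 1545. Gm28439 matches the first 876 of the 1378 bases of mt-Nd4. The remaining pair, Gm28438 and Gm10222, match 342 bases of mt-Nd3 and 294 of mt-Nd4l, which are complex I genes outside the 10.

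The members fell into 2 classes by abundance. Each library gave the 7 abundant members at least 1324 counts: mt-Co1 at 56173 to 117109 counts, mt-Cytb at 27261 to 54538, mt-Nd1 at 20575 to 41120, mt-Nd5 at 18571 to 34827, mt-Nd4 at 12868 to 26144, mt-Nd2 at 11079 to 24631 and mt-Nd6 at 1324 to 2451. The other 3 were close to the bottom of the tested range: mt-Co2 held 5 to 23 counts, mt-Atp6 5 to 20 and mt-Co3 4 to 18. A further 3 protein genes of the mitochondrial genome were lower still and were not tested: mt-Nd3 at 0 to 9 counts, mt-Nd4l at 1 to 8 and mt-Atp8 at 0 to 6.

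Per length, the order was led by mt-Co1, the catalytic core subunit of complex IV, at 5295 to 8241 CPM per kilobase with a median of 6697, above every other member in all 32 libraries. mt-Cytb, the cytochrome b of complex III, had a median of 4282 CPM per kilobase, and mt-Nd1, a membrane-arm subunit of complex I, a median of 4150. The order of this pair was not uniform, since mt-Cytb was above mt-Nd1 in 25 of 32 libraries. mt-Nd2 followed at a median of 2223 CPM per kilobase, above mt-Nd5 in 31 of 32 libraries. mt-Nd5 and mt-Nd4, the proton-pumping subunits at the far end of complex I, had medians of 1751 and 1743 CPM per kilobase, and mt-Nd5 was the higher in 20 of 32 libraries, so these neighbours did not differ beyond their spread. mt-Nd6 had a median of 438 CPM per kilobase and was below mt-Nd4 in all 32 libraries. The 3 sparse genes had medians of 2.71 (mt-Co2), 1.91 (mt-Atp6) and 1.36 (mt-Co3) CPM per kilobase. Over all libraries the coefficient of variation of CPM was 10.8% to 13.2% in the 7 abundant members and 40.1% to 42.1% in the 3 sparse ones.

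**Figure D1:**
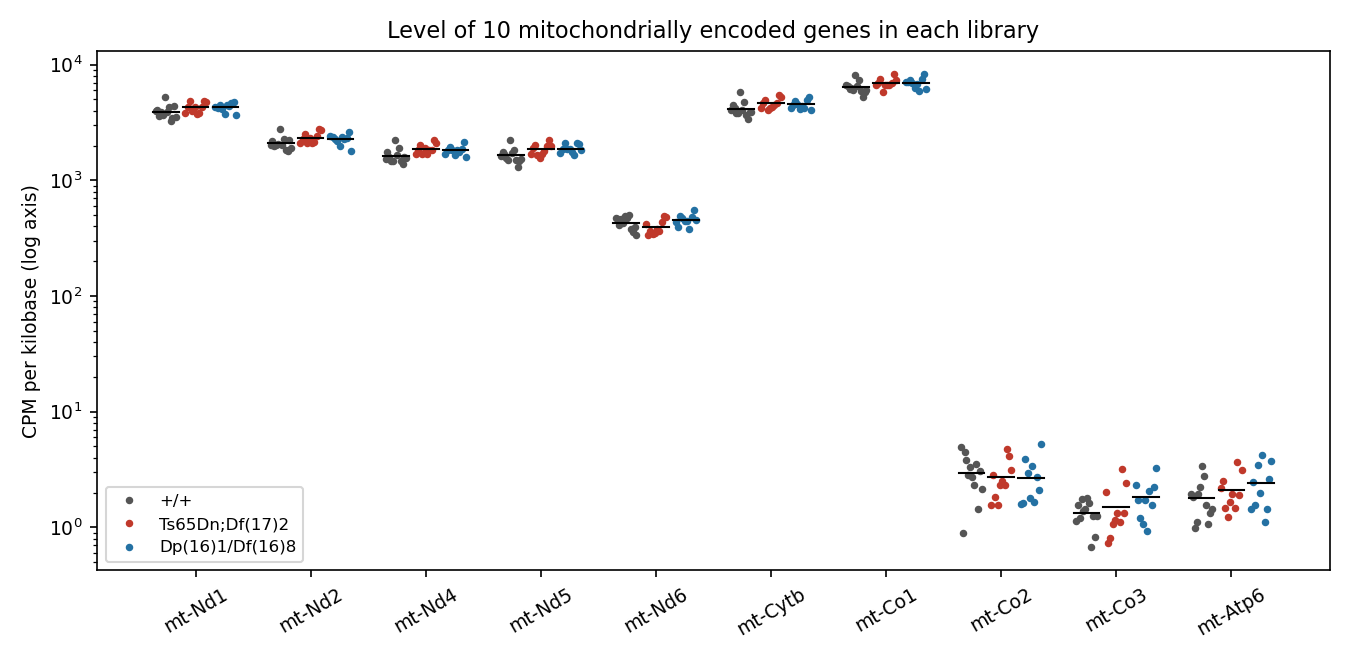
Levels of the 10 members in CPM per kilobase of gene length (log axis) for every library, coloured by genotype, with the group mean as a black line. The 3 sparse genes lie below 6 CPM per kilobase and mt-Nd6 between 336 and 552, and within each gene the points of the 3 genotypes overlap.

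The share of each gene found elsewhere in the annotated transcripts was measured in windows of 50 bases. It was 100% for mt-Co2, 99.9% for mt-Co3 and 99.5% for mt-Atp6, the 3 sparse members. It was 62.2% for mt-Nd4, 51.1% for mt-Co1, 8.19% for mt-Nd2, 7.61% for mt-Nd5 and 0% for mt-Nd1, mt-Nd6 and mt-Cytb. Among the genes outside the 10, mt-Nd4l was at 98.8% and mt-Nd3 at 98.0%. mt-Atp8, a small ATP synthase subunit between mt-Co2 and mt-Atp6, was at 0% and held at most 6 counts. It shares 43 bases (chrM:7927-7969) with the start of mt-Atp6, which lie in the stretch matched by Gm10925. Sequence outside annotated transcripts was not searched, including that between Gm28661 and Gm10925 on chromosome 1. The 0% of mt-Atp8 therefore does not show that it has no nuclear copy. How reads that match several places were treated is not given in the sources used here, and the part of the copies in these levels was not tested.

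**Figure D2:**
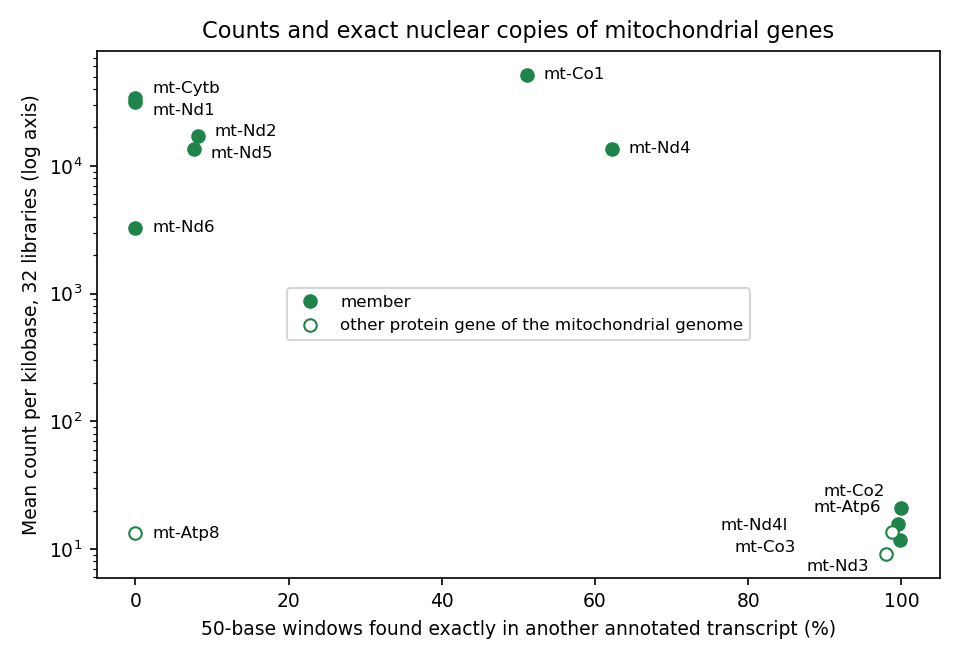
Mean count per kilobase over 32 libraries (log axis) against the percentage of 50-base windows that occur exactly in another annotated transcript, for the 10 members (filled) and 3 other protein genes (open). The 3 sparse members sit at 99.5% or more and mt-Atp8 at 0%. Sequence outside annotated transcripts was not searched.

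The order within the abundant members depended on this measure of length. Divided by the number of 50-base windows found once, mt-Co1 had a mean of 109 counts per window and mt-Nd4 37.2, ahead of mt-Cytb at 35.4 and mt-Nd1 at 33.6. mt-Nd2 had 19.6 counts per window, mt-Nd5 15.2 and mt-Nd6 3.60. mt-Nd4 thus stood next to mt-Co1 on this scale and below mt-Nd5 on the scale of full length. With windows of 100 bases mt-Co1 had 79.9 counts per window, mt-Nd4 37.2 and mt-Cytb 37.1.

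None of the 10 members passed the test in any contrast between genotypes (quasi-likelihood test of edgeR, adjusted over 16042 genes after Benjamini and Hochberg, threshold 0.05). Of all tested genes, 3.97% were called in Ts65Dn;Df(17)2 against +/+, 0.573% in Dp(16)1/Df(16)8 against +/+ and 0.0499% between the aneuploid groups. At an unadjusted p under 0.05, 4 members were counted in the first contrast, 2 in the second and 1 in the third, where the shares of all genes were 21.8%, 12.8% and 4.1%. DESeq2 and limma voom called no member either. The 2 contrasts with +/+ share their control libraries.

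Among the complex I members, mt-Nd1 ran from 3103 to 5041 CPM in +/+ (median 3711), from 3616 to 4685 in Ts65Dn;Df(17)2 (median 4145) and from 3487 to 4536 in Dp(16)1/Df(16)8 (median 4188). The highest value belonged to a +/+ library, so the aneuploid ranges lay inside that of +/+. Its log2 fold change was 0.13 (SE 0.068) in Ts65Dn;Df(17)2 and 0.12 (SE 0.068) in Dp(16)1/Df(16)8, with adjusted p of 0.280 and 0.444.

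mt-Nd2, another membrane-arm subunit, had 1874 to 2863 CPM in +/+ (median 2105), 2169 to 2866 in Ts65Dn;Df(17)2 (median 2385) and 1877 to 2733 in Dp(16)1/Df(16)8 (median 2387). All 10 Ts65Dn;Df(17)2 libraries were above the +/+ mean, but the groups overlapped over most of their range. The log2 fold changes were 0.16 (SE 0.068, adjusted p = 0.159) and 0.11 (SE 0.068, adjusted p = 0.506).

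mt-Nd4 came closest to the threshold. It had 1912 to 3059 CPM in +/+ (median 2162), 2305 to 3073 in Ts65Dn;Df(17)2 (median 2543) and 2181 to 2954 in Dp(16)1/Df(16)8 (median 2529). All 10 Ts65Dn;Df(17)2 libraries and 9 of 10 Dp(16)1/Df(16)8 libraries were above the +/+ mean, while +/+ replicates 6 and 8, at 3059 and 2601 CPM, were above the Ts65Dn;Df(17)2 median. The log2 fold change in Ts65Dn;Df(17)2 was 0.20 (95% interval 0.07 to 0.33, adjusted p = 0.0747) and in Dp(16)1/Df(16)8 0.15 (95% interval 0.02 to 0.29, adjusted p = 0.334).

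mt-Nd5 had 2359 to 4103 CPM in +/+ (median 2885), 2868 to 4055 in Ts65Dn;Df(17)2 (median 3360) and 2995 to 3860 in Dp(16)1/Df(16)8 (median 3393). It was above the +/+ mean in 9 of 10 Ts65Dn;Df(17)2 and in 10 of 10 Dp(16)1/Df(16)8 libraries, with overlap of all groups. The log2 fold changes were 0.18 (adjusted p = 0.139) and 0.20 (adjusted p = 0.249).

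mt-Nd6, the complex I subunit on the light-strand transcript, had a different pattern of signs. It had 175 to 258 CPM in +/+ (median 232), 176 to 257 in Ts65Dn;Df(17)2 (median 194) and 197 to 286 in Dp(16)1/Df(16)8 (median 233). Only 3 of 10 Ts65Dn;Df(17)2 libraries were above the +/+ mean, against 8 of 10 Dp(16)1/Df(16)8 libraries. Its log2 fold change was -0.12 in Ts65Dn;Df(17)2 (SE 0.076, adjusted p = 0.389) and 0.08 in Dp(16)1/Df(16)8 (SE 0.076, adjusted p = 0.681). It was the member with an unadjusted p under 0.05 between the aneuploid groups, at a log2 fold change of -0.19 with an adjusted p of 1.00.

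mt-Cytb had 3916 to 6626 CPM in +/+ (median 4547), 4657 to 6237 in Ts65Dn;Df(17)2 (median 5232) and 4619 to 5994 in Dp(16)1/Df(16)8 (median 5104). In each aneuploid group 9 of 10 libraries were above the +/+ mean. The log2 fold changes were 0.16 (SE 0.070, adjusted p = 0.187) and 0.12 (SE 0.070, adjusted p = 0.461).

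Of the complex IV genes, mt-Co1 had 8181 to 12596 CPM in +/+ (median 9610), 9018 to 12733 in Ts65Dn;Df(17)2 (median 10554) and 9205 to 12720 in Dp(16)1/Df(16)8 (median 10822). Its log2 fold change was 0.12 in each group (adjusted p = 0.263 and 0.444), and the 3 ranges overlapped. mt-Co2, the subunit that receives electrons from cytochrome c, had 5 to 23 counts in +/+ (median 16), 9 to 22 in Ts65Dn;Df(17)2 (median 13.5) and 9 to 21 in Dp(16)1/Df(16)8 (median 11). mt-Co3, the remaining core subunit of that complex, had 4 to 10 counts in +/+ (median 8), 5 to 18 in Ts65Dn;Df(17)2 (median 8) and 5 to 15 in Dp(16)1/Df(16)8 (median 11). mt-Atp6, the subunit that lines the proton path of ATP synthase, had 5 to 15 counts in +/+ (median 8.5), 7 to 18 in Ts65Dn;Df(17)2 (median 10) and 6 to 20 in Dp(16)1/Df(16)8 (median 11). At this depth a difference of the size seen in the abundant members was not detectable in these 3 genes, whose log2 fold changes against +/+ had SEs of 0.232 to 0.252.

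**Figure D3:**
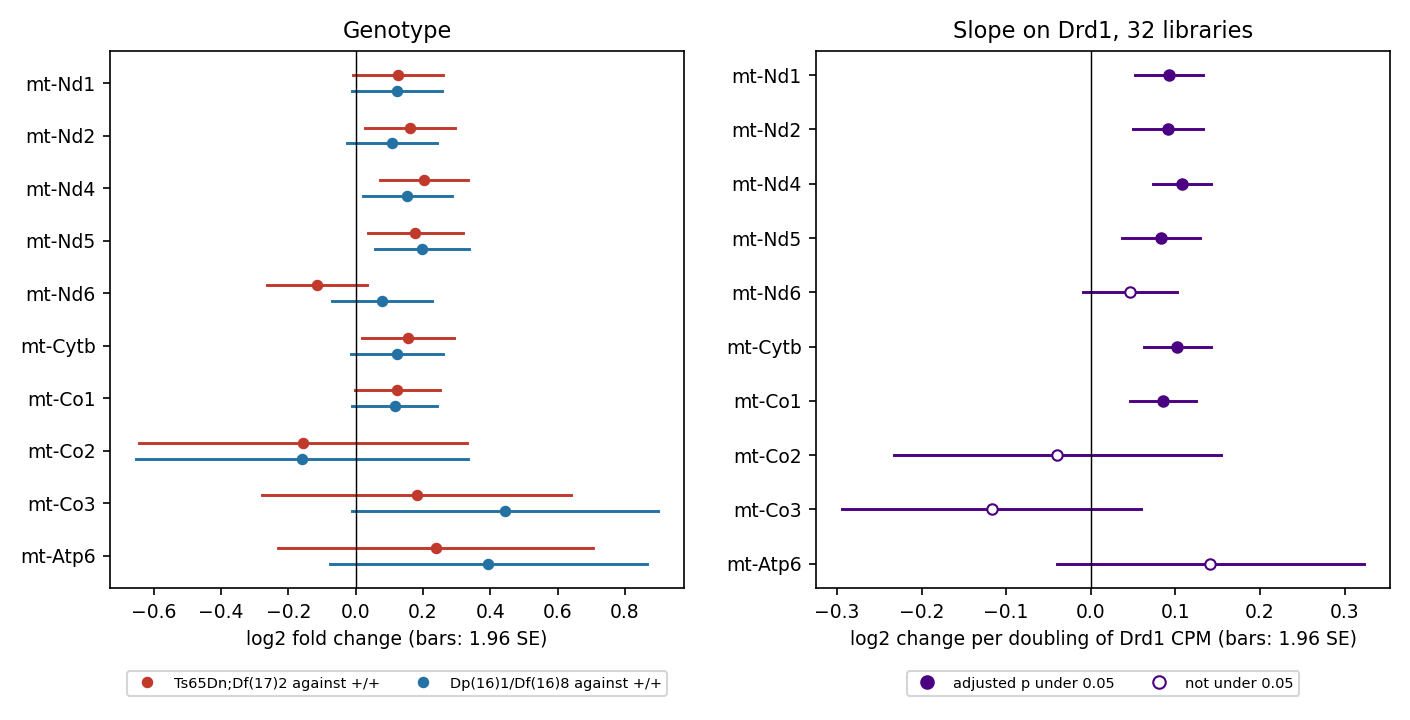
Left, log2 fold change of each member in the 2 aneuploid groups against +/+; right, log2 change of each member per log2 unit of Drd1 CPM, with filled points for adjusted p under 0.05; bars are 95% intervals. The genotype changes of the 7 abundant members lie between -0.12 and 0.20, and 6 members are filled on the right.

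Over the 7 abundant members the median log2 fold change was 0.16 in Ts65Dn;Df(17)2, 0.12 in Dp(16)1/Df(16)8 and 0.01 between these groups, beside 0.00 over all genes in each contrast. Cell type markers were set beside the members in the contrasts with +/+. Of 10 cortical excitatory markers, 5 were called lower and none higher in Ts65Dn;Df(17)2 against +/+ by the same test, among them Rorb (log2 fold change -0.55) and Cux2 (-0.50), and none was called in Dp(16)1/Df(16)8. All 14 striatal markers had positive log2 fold changes in both aneuploid groups, with medians of 0.77 and 0.53, and none was called. The 5 endothelial markers had medians of 0.18 and 0.23, and none was called. The thalamus list had medians of 0.17 and 0.14, with Rora called lower in Ts65Dn;Df(17)2. Medians of the astrocyte, myelin and microglia lists lay between -0.034 and 0.030, with Aldoc, an astrocyte marker, called lower in Ts65Dn;Df(17)2. The part of these cell types in the members' genotype changes was not tested. A single library decided whether members were called: +/+ replicate 6 gave 3.39% of its counts to the members, the highest share in its group, where the median was 2.52%, and its Drd1 level was 177 CPM. Without it, 4 members rose in Ts65Dn;Df(17)2 (mt-Nd2 by 0.20, mt-Nd4 by 0.25, mt-Nd5 by 0.23 and mt-Cytb by 0.21 on the log2 scale, edgeR adjusted p of 0.0400, 0.0100, 0.0301 and 0.0319), while 6.94% of all genes were then called. With all libraries and log2 Drd1 CPM as a further term, the median of the 7 was 0.041 in Ts65Dn;Df(17)2 and 0.064 in Dp(16)1/Df(16)8, and mt-Nd4 stood at 0.081 (adjusted p = 0.510) in the former.

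No member differed between the sexes, where 0.0748% of all genes were called by edgeR and no member had an unadjusted p under 0.05, against 9.94% of all genes. The log2 differences, female against male, were -0.03 to 0.02 in the abundant members. The sex difference itself differed between an aneuploid group and +/+ in none of the 10 (edgeR), and 0% of all genes were called in either of these tests. At an unadjusted p under 0.05, 3 members were counted for Ts65Dn;Df(17)2 and 0 for Dp(16)1/Df(16)8, against 4.91% and 5.01% of all genes. The 3 were mt-Nd6 (log2 value -0.41), mt-Co2 (-1.14) and mt-Cytb (-0.28), each with an adjusted p of 0.940 by edgeR.

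Drd1, the dopamine D1 receptor of striatal projection neurons, varied widely between libraries of each genotype: from 12.8 to 177 CPM in +/+ (median 35.5), from 38.1 to 159 in Ts65Dn;Df(17)2 (median 118) and from 19.1 to 196 in Dp(16)1/Df(16)8 (median 117). The other 13 striatal markers all rose with it. Of 10 cortical excitatory markers 8 fell and 2 rose, Bcl11b and Foxp2, with slopes of 0.47 and 0.62. These 2 are part of the summed cortical level given above. Bcl11b had a mean of 191 CPM in +/+, 263 in Ts65Dn;Df(17)2 and 247 in Dp(16)1/Df(16)8, and Foxp2 41.5, 65.1 and 56.6. All 5 microglia markers and all 5 endothelial markers had positive slopes, 3 of each list were called, and the list medians were 0.090 and 0.080. Of the 10 members, 6 rose with Drd1 when genotype and sex were kept as terms, where 27.5% of all genes were called, 13.9% higher and 13.6% lower. These 6 were the abundant members of the heavy-strand transcript, and the median slope of the 7 abundant members was 0.091. Nearness to the microglia and endothelial medians was not particular to those lists. The myelin and oligodendrocyte list had a median of 0.10 and the red blood cell list 0.13, with no marker called in either. The astrocyte list had a median of -0.011. The part of any of these cell types in the members' slopes was not tested.

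The slope was 0.11 for mt-Nd4 (SE 0.018, adjusted p = 1.45e-05), 0.10 for mt-Cytb (SE 0.020, adjusted p = 0.000207) and 0.092 for mt-Nd1 (SE 0.021, adjusted p = 0.000799), each as the log2 change of the gene per log2 unit of Drd1 CPM (quasi-likelihood test of edgeR, Benjamini-Hochberg adjusted over 16041 genes). mt-Nd2 and mt-Co1 had slopes of 0.091 and 0.085 (adjusted p = 0.00109 and 0.00133), and mt-Nd5 had 0.083 (adjusted p = 0.00704). mt-Nd6 had a slope of 0.046 that did not pass (SE 0.028, adjusted p = 0.240). The sparse members did not pass either, with slopes of -0.040 for mt-Co2, -0.12 for mt-Co3 and 0.14 for mt-Atp6. The call of mt-Nd5 rested on +/+ replicate 6, without which its slope was 0.057 with an adjusted p of 0.0789 and 24% of all genes were called.

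**Figure D4:**
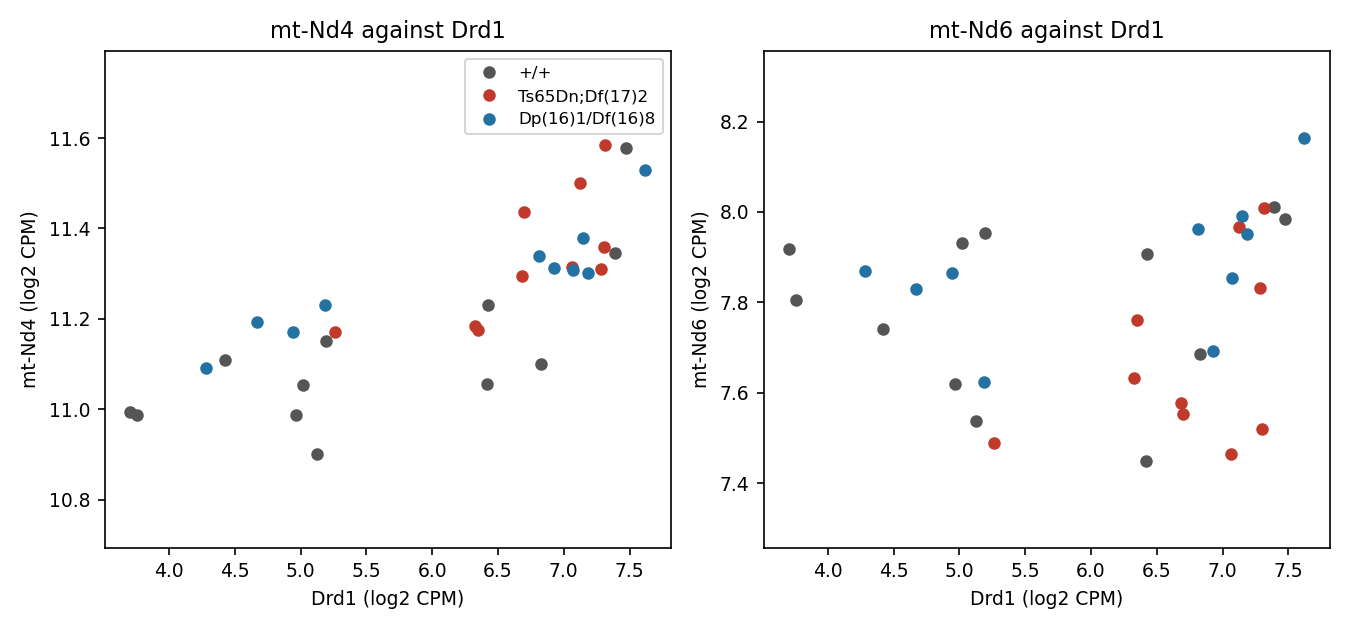
log2 CPM of mt-Nd4 (left) and mt-Nd6 (right) against log2 CPM of Drd1 in 32 libraries, coloured by genotype, both vertical axes spanning the same range. A gap in Drd1 between 5.26 and 6.32 separates 12 libraries from 20, and the highest mt-Nd4 value of each genotype lies to the right of it.

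The Drd1 values fell into separate sets, so no correlation over libraries on both sides is given. The largest gap on the log2 scale was 1.06, from 38.1 to 79.8 CPM, and the next was 0.52. Below it stood 12 libraries (7 +/+, 1 Ts65Dn;Df(17)2 and 4 Dp(16)1/Df(16)8) and above it 20 (5, 9 and 6). Correlations on each side pooled these genotypes, with no term for genotype or sex. Below the gap no member passed: Pearson's r of mt-Nd4 with Drd1 was 0.37 and Spearman's rho 0.38 (permutation test, adjusted p = 0.533 and 0.568 over all genes), where 0.125% of all genes were called by r and 0% by rho. Above the gap 3 members passed by r and 2 by rho, where 4.54% and 3.87% of all genes were called. mt-Nd4 had r = 0.73 and rho = 0.74 (permutation test, adjusted p = 0.0117 and 0.0180), mt-Nd2 had r = 0.69 and rho = 0.70 (adjusted p = 0.0256 and 0.0291), and mt-Nd1 had r = 0.70 and rho = 0.62 (adjusted p = 0.0225 and 0.0873). Without the 2 libraries farthest from the median Drd1, r was 0.68 for mt-Nd4, 0.63 for mt-Nd2 and 0.61 for mt-Nd1.

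The slope was also fitted on each side of the gap, and the sides were not tested against each other. In the 12 libraries below the gap none of the members passed, where 0.116% of all genes did (edgeR), and 0 had an unadjusted p under 0.05, against 9.06% of all genes. In the 20 above it mt-Nd1, mt-Nd2 and mt-Nd4 passed with slopes of 0.27, 0.27 and 0.28 (adjusted p = 0.0298, 0.0202 and 0.00902), where 4.54% of all genes did. With the side of the gap as a further term in all 32 libraries, mt-Nd4 alone passed, with a slope of 0.16 (adjusted p = 0.0269), beside 4.61% of all genes. The division at the gap was chosen after the data were seen.

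Within a genotype the slopes of the abundant members stayed positive, with fewer calls. In +/+ 4 members passed, where 14.7% of all genes did. In Ts65Dn;Df(17)2 no member passed, where 2.46% did (edgeR), and 6 had an unadjusted p under 0.05, where 14.1% did. In Dp(16)1/Df(16)8 mt-Nd4 passed with a slope of 0.088 (adjusted p = 0.0322), where 14.5% did. No member's slope differed between genotypes, the smallest adjusted p by edgeR being 0.422, and 0% to 0.00623% of all genes were called in these tests. At an unadjusted p under 0.05 the slope of 1 member differed between Ts65Dn;Df(17)2 and +/+, against 10.4% of all genes, and none did between Dp(16)1/Df(16)8 and +/+ or between the aneuploid groups, against 3.87% and 6%.

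The ratio of mt-Nd6 to the summed counts of the 9 other members sets the 2 strands of the genome against each other within a library and does not depend on library scaling. Its log2 value was -6.85 ± 0.14 (SD, n = 12) in +/+, -7.12 ± 0.15 (SD, n = 10) in Ts65Dn;Df(17)2 and -6.91 ± 0.11 (SD, n = 10) in Dp(16)1/Df(16)8. In plain terms mt-Nd6 gave 0.869% of the counts of the others in +/+, 0.723% in Ts65Dn;Df(17)2 and 0.837% in Dp(16)1/Df(16)8. The ranges overlapped: -7.10 to -6.68 in +/+, -7.37 to -6.93 in Ts65Dn;Df(17)2 and -7.11 to -6.74 in Dp(16)1/Df(16)8.

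Ts65Dn;Df(17)2 was lower than +/+ by 0.27 on the log2 scale (value -0.27, two-sided permutation test with no term for sex, p = 0.00042, 0.00126 adjusted over the 3 pairs). It was also lower than Dp(16)1/Df(16)8, with a difference of -0.21 (permutation p = 0.00241, adjusted 0.00361). No block of title numbers holds both of these groups, so this difference cannot be told apart from a difference between blocks. Dp(16)1/Df(16)8 and +/+ differed by -0.052, less than the SD of either group (permutation p = 0.342). Leaving out each library in turn gave -0.29 to -0.24 for the first difference. Both parts of the ratio entered that difference. In the same contrast mt-Nd6 had a log2 fold change of -0.12 and the 6 abundant heavy-strand members 0.12 to 0.20. None of these genes was called by edgeR.

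The libraries' title numbers moved with genotype here, and the ratio was therefore compared within blocks, a choice made after the data were seen. In the block 32350 to 32373 the 8 Ts65Dn;Df(17)2 libraries had a log2 ratio of -7.11 ± 0.17 (SD) and the 4 +/+ libraries -6.79 ± 0.08 (SD), without overlap, a difference of -0.32 (exact permutation test, p = 0.00808). In the block 32128 to 32252 the 4 Dp(16)1/Df(16)8 libraries had -7.01 ± 0.09 (SD) and the 4 +/+ libraries -6.79 ± 0.10 (SD), also without overlap, a difference of -0.21 (exact permutation test, p = 0.0286, the smallest that 4 against 4 can give). In the block 32333 to 32346 the 3 Dp(16)1/Df(16)8 libraries had -6.94, -6.89 and -6.82 and the 2 +/+ libraries -7.08 and -6.92, so that Dp(16)1/Df(16)8 was higher by 0.12 (exact permutation test, p = 0.3). This sign is opposite to that in 32128 to 32252. In the block 32395 to 32406 the 3 Dp(16)1/Df(16)8 libraries had -6.83, -6.80 and -6.74 and the 2 +/+ libraries -7.10 and -6.82, a difference of 0.17 (exact permutation test, p = 0.2). These 2 blocks, with 3 libraries against 2, cannot give a p below 0.1, and across the 3 blocks the difference of Dp(16)1/Df(16)8 from +/+ had no common direction. Drd1 was uneven within some blocks. Its log2 CPM in 32350 to 32373 was 4.42 to 6.43 in +/+ and 6.32 to 7.32 in Ts65Dn;Df(17)2. In 32128 to 32252 it was 3.71 to 5.12 in +/+ and 4.67 to 7.07 in Dp(16)1/Df(16)8. In 32333 to 32346 the same groups had 6.83 to 7.47 and 6.81 to 7.19. In 32395 to 32406 they had 6.42 to 7.39 and 4.28 to 7.62. The part of Drd1 in the differences within blocks was not tested. Over all libraries the ratio moved by -0.040 per log2 unit of Drd1 CPM with genotype means removed. Its r with log2 Drd1 CPM was -0.62 within +/+, -0.030 within Ts65Dn;Df(17)2 and -0.18 within Dp(16)1/Df(16)8. Values were moved to 1 common Drd1 level by the same slope in every group, although these r differed. The difference of Ts65Dn;Df(17)2 from +/+ over all libraries was then -0.22 (permutation test, adjusted p = 0.00300). Whether the counting used strand is not given in the sources used here, so light-strand reads over mt-Nd6 and heavy-strand reads on the opposite side of it cannot be told apart. mt-Nd5 and mt-Nd6 overlap by 14 bases at their ends (chrM:13552-13565).

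**Figure D5:**
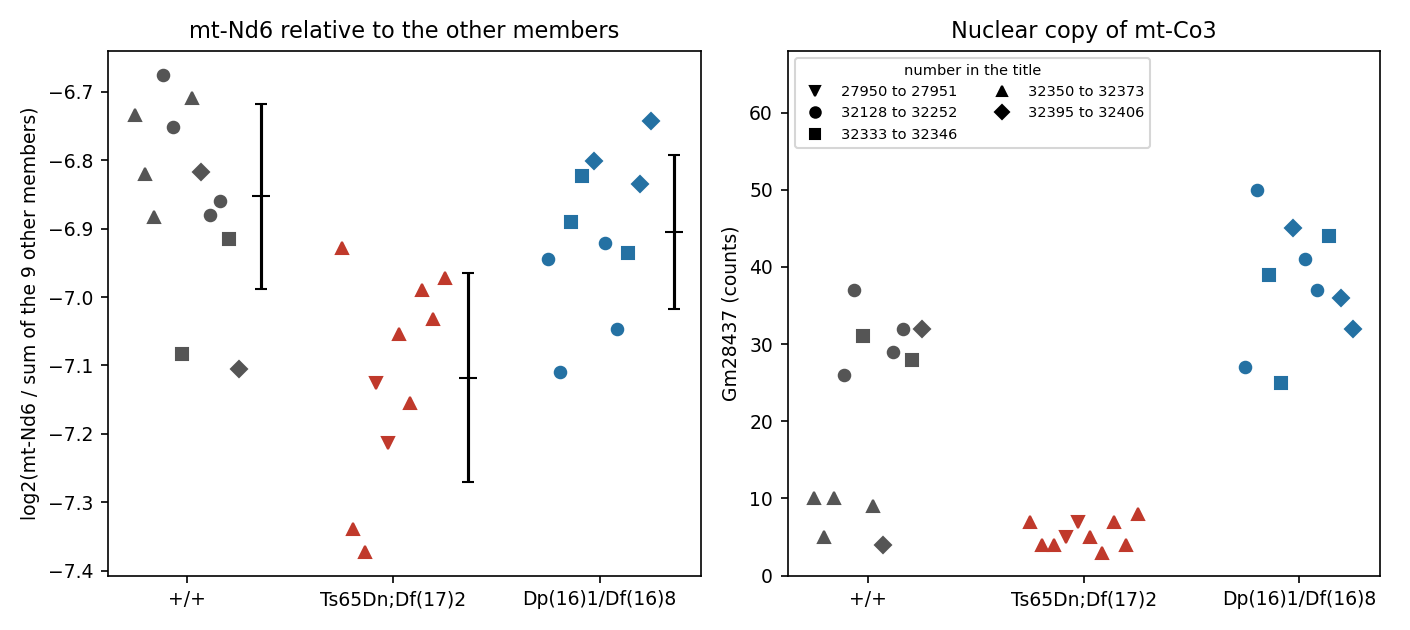
Left, log2 ratio of mt-Nd6 to the summed 9 other members in each library, with mean and SD in black; right, counts of Gm28437, the nuclear copy of mt-Co3; colours mark genotype and symbols the block of title numbers. On the left Ts65Dn;Df(17)2 averages -7.12 against -6.85 in +/+; on the right all 12 libraries of 32350 to 32373, of both genotypes, hold 3 to 10 counts.

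Between libraries the members moved together. After genotype and sex means were removed, the 15 pairs among the 6 abundant heavy-strand members had correlations of log2 CPM from 0.66 to 0.96 over 32 libraries. mt-Nd6 correlated with the same 6 at 0.50 to 0.72. These values share library, depth and scaling, and are given as a description.

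The nuclear copies were read beside their members, and the ones named here were chosen after their values were seen. Gm28437, whose sequence is printed above with mt-Co3, held 3 to 8 counts in Ts65Dn;Df(17)2 (median 5) and 25 to 50 in Dp(16)1/Df(16)8 (median 38). In +/+ it held 4 to 10 counts in 5 libraries and 26 to 37 in the other 7, so this group was itself divided. All 12 libraries numbered 32350 to 32373 had 3 to 10 counts, whichever their genotype, and all 8 numbered 32128 to 32252 had 26 to 50. Those numbered 32333 to 32346 had 25 to 44. The block 32395 to 32406 was itself divided, with 4 and 32 counts in its 2 +/+ libraries and 32 to 45 in its 3 Dp(16)1/Df(16)8 libraries.

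The count of Gm28437 was called lower in Ts65Dn;Df(17)2 than in +/+ (log2 fold change -2.06, adjusted p = 2.83e-05) and than in Dp(16)1/Df(16)8 (-2.92, adjusted p = 1.04e-07; quasi-likelihood test of edgeR). With the blocks of title numbers as terms these values were -0.89 (adjusted p = 0.199) and -1.43 (adjusted p = 0.620), and neither passed. mt-Co3 itself did not follow the division: it held 5 to 18 counts in the block 32350 to 32373 and 4 to 15 in the block 32128 to 32252. Gm28438, the copy of mt-Nd3, held 0 to 5 counts in Ts65Dn;Df(17)2, 0 to 8 in Dp(16)1/Df(16)8 and 0 to 12 in +/+, while mt-Nd3 held 2 to 9, 0 to 3 and 0 to 5. A single +/+ library each stood apart in 2 other copies: replicate 12 with 123 counts of Gm29216, against 0 to 6 elsewhere, and replicate 9 with 38 counts of Gm28439, against 0 to 7 elsewhere.

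The mitochondrial ribosomal RNAs mt-Rnr1 and mt-Rnr2, of a kind that the depletion removes, varied far more than the members: from 28.6 to 1732 and from 23.9 to 1554 CPM. Neither was called in a genotype contrast or on Drd1, where their slopes were 0.26 each (adjusted p = 0.211 and 0.246). All 22 mitochondrial transfer RNA genes in the table were at 0 in every library.

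The nuclear partners of the members were set beside them from lists of subunits. Of 36 nuclear complex I genes, none was called in any genotype contrast, and 15 rose and none fell with Drd1, where 13.9% of all genes were called higher and 13.6% lower. Among them Ndufa1, an accessory subunit, had a slope of 0.11 (adjusted p = 9.89e-06), and Ndufs8, an iron-sulphur subunit, one of 0.057 (adjusted p = 0.00805). The median slope of the 36 was 0.045, beside 0.0020 over all genes and 0.091 for the 7 abundant members. Of 9 nuclear complex III genes, Uqcr11 (0.081) and Uqcrh (0.070) rose with Drd1, and none of the 9 fell. Of 11 nuclear complex IV genes, Cox4i1 (0.046), Cox7c (0.059) and Cox6c (0.046) rose with it, and of 14 ATP synthase genes Atp5a1 (0.039), Atp5j2 (0.070) and Atp5g2 (0.093) did. These are 2 of 9, 3 of 11 and 3 of 14 genes, beside 13.9% of all genes called higher, and nothing particular to the 3 lists is read from them.

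Between genotypes a single gene of these lists was called: Cox8a, a small complex IV subunit, fell by 0.15 on the log2 scale in Ts65Dn;Df(17)2 (adjusted p = 0.0375), from 136 ± 9.91 CPM (SD, n = 12) in +/+ to 123 ± 6.54 (SD, n = 10). That is 1 gene of 4 lists in a contrast that called 3.97% of all genes, and none of these genes was called in the contrasts that called 0.573% and 0.0499%. Of 36 genes of mitochondrial RNA synthesis and processing, none was called in a genotype contrast and 4 rose with Drd1, among them Mterf2, of the family of mitochondrial transcription termination factors, with a slope of 0.19 (adjusted p = 1.04e-06), and Tfb2m, a mitochondrial transcription initiation factor, with 0.11 (adjusted p = 0.0310). A count of 4 in 36 is near the 13.9% of all genes that were called higher and is no result about this list.

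The list of mitochondrial genes in the additional chromosome 16 segment holds 5, and all 5 rose in both aneuploid groups. The ATP synthase subunits Atp5o and Atp5j rose by 0.67 and 0.65 on the log2 scale in Ts65Dn;Df(17)2, and by 0.65 and 0.66 in Dp(16)1/Df(16)8, with edgeR adjusted p of at most 1.18e-13. Gabpa, a transcription factor that acts on many nuclear genes of the respiratory chain, rose by 0.56 in the former and 0.60 in the latter. The mitochondrial ribosomal protein genes Mrps6 (0.69 and 0.66) and Mrpl39 (0.43 and 0.55) rose as well. None of these 5 differed between the aneuploid groups, and mt-Atp6, the mitochondrially encoded partner of Atp5o and Atp5j, was not called.

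The nuclear genes whose levels most resembled the members were sought by the correlation of log2 CPM with the members' mean over 32 libraries, with genotype and sex means removed. Pseudogenes and genes with provisional symbols (Gm or Rik numbers) were left out of this search. Over all 10 members they were Ap1ar (0.74), Utrn (0.72), Opa1 (0.71), Acvr1c, Pdpr, Rgs5, Ngef and Slc16a6 (0.70 each), and Pecam1 and Fam160b2 (0.69 each). The sparse members weigh on this mean as much as the abundant ones. Over the 7 abundant members alone, a choice added after the data were seen, the list was led by Utrn (0.84), Acvr1c (0.82) and Kcnd2 (0.81). These are descriptions of shared variation between libraries that differ in Drd1.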

How the data were processed

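RNA of cerebral cortex was measured in 32 libraries. The authors deposited 1 table of raw counts per gene, whole numbers with no normalization. Per the submitters' processing notes, the tools were STAR 2.7.9a, featureCounts (Subread 1.6.4) and bcl2fastq 2.20, and the builds GRCh38 and GRCm38.p6. The annotation release, the strand setting and the treatment of reads that match several places are not given in the sources used here, which bears directly on genes with nuclear copies.

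The members and all lists were chosen with earlier results of these data known. Groups and sex follow the labels, and replicates were numbered in sample order, so p-values measure the spread between these samples. Genes were kept by filterByExpr of edgeR 4.0.16 in R 4.3.3 (count minimum 10), which left 16042 genes with 99.7% of the counts. A quasi-likelihood model on TMM-scaled libraries had terms for genotype and sex, and for log2 Drd1 CPM (prior count 2) in the slope. Benjamini-Hochberg adjustment ran over every tested gene, at a threshold of 0.05. The slope and correlations left out Drd1 itself. Correlations and the mt-Nd6 ratio used two-sided permutation tests with 100000 permutations (Python 3.11.15, NumPy 2.4.6, SciPy 1.17.1), or exact ones in small groups. The edgeR and permutation steps were tested on simulated data. Sequences, coordinates and shared windows came from GENCODE M21 transcripts of GRCm38.

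Named genes are all members, the other mitochondrially encoded genes with counts, Drd1 and the 5 mitochondrial genes of the chromosome 16 segment. Up to 3 called genes with the smallest adjusted p were named from each nuclear list. The 10 genes most alike were named too, with pseudogenes and provisional symbols left out. Nuclear copies were named after their values were seen. Alternatives were no TMM factor, TMM without mitochondrially encoded genes, no filter, DESeq2 1.42.0, limma voom 3.58.1, no sex term, 2 genotypes only, Drd1 or title-number blocks as terms, other striatal markers in place of Drd1, slopes with no genotype term or within a genotype, and leaving out libraries. Those on the Drd1 gap, on single blocks for the ratio and on Drd1 for the ratio were chosen after the data were seen.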

Additional observations from a re-analysis of the deposited data

Results flagged for a closer look

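In 30 groups of 10 libraries, 3 values lay farther from their nearest neighbour than Dixon's 95% criterion allows (a gap over range of 0.466 for 10 samples), a distance that chance gives in about 1 of 20 groups. In Ts65Dn;Df(17)2 replicate 5 the mitochondrial ribosomal RNAs stood apart on the low side, with mt-Rnr1 at 8.04 log2 CPM, where the nearest library was at 9.56, and mt-Rnr2 at 8.40, where the nearest was at 9.74. In Ts65Dn;Df(17)2 replicate 4 Drd1 was at 5.26 log2 CPM, where the nearest library was at 6.32; it is the only library of its genotype below the gap in Drd1. Both libraries carry the title numbers 27950 and 27951, the block that holds no other library. The criterion can miss several low values that stand together, and +/+ was not examined by it. In Dp(16)1/Df(16)8 replicates 7, 8, 9 and 10, all labelled male, the mitochondrial ribosomal RNAs took 0.0232%, 0.0633%, 0.0327% and 0.00529% of the counts. Replicate 6 of that group, also labelled male, had 0.188%. The share in Ts65Dn;Df(17)2 replicate 5 was 0.0589%.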

How the results depend on the processing

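No member was called between genotypes or sexes under any of the alternatives run, except that leaving out each library in turn gave 0 to 4 members in Ts65Dn;Df(17)2 against +/+, the 4 without +/+ replicate 6. Over all genes that contrast called 637; it called 331 with no filter, 1069 by DESeq2, 280 without the libraries numbered 27950 and 27951, 206 with title-number blocks and 149 with log2 Drd1 CPM as terms, and 264 (without Ts65Dn;Df(17)2 replicate 2) to 1486 (without +/+ replicate 11) with each library left out; that count moved by over 1.5 times without +/+ replicate 1, 4, 5, 6, 7, 9, 10 or 11 or Ts65Dn;Df(17)2 replicate 2, 4, 7, 8 or 9. Dp(16)1/Df(16)8 against +/+ called 92, 145 by DESeq2, and 74 to 222 with each left out, with 222 without Dp(16)1/Df(16)8 replicate 1 and 165 without +/+ replicate 11. The aneuploid groups differed in 8 genes, in 0 with blocks as terms. On Drd1 4409 genes were called: 2668 with blocks, 2359 within +/+, 395 within Ts65Dn;Df(17)2, 2324 within Dp(16)1/Df(16)8, 20 below the gap, and 739 above it and 739 with a term for its side. Of the 10 members 6 were called on Drd1, 0 within Ts65Dn;Df(17)2, 1 within Dp(16)1/Df(16)8, 0 below the gap, 3 above it, 1 with the term for its side and 5 to 6 with each library left out. The mt-Nd6 ratio of Dp(16)1/Df(16)8 to +/+ was -0.21 within numbers 32128 to 32252, and turned to 0.12 within 32333 to 32346 and to 0.17 within 32395 to 32406. Signs turned for mt-Co2 on Drd1, at 0.63 within Ts65Dn;Df(17)2, 0.011 within Dp(16)1/Df(16)8, 0.76 above the gap, 0.017 with the term for its side and -0.075 to 0.045 with each library left out; for mt-Co3 at 0.23 within Ts65Dn;Df(17)2 and 0.22 above the gap; and below the gap for mt-Nd6 at -0.037 and mt-Atp6 at -0.22. Without the 2 libraries farthest from the median, r below the gap turned to -0.39 for mt-Nd5 and -0.28 for mt-Cytb. The cause of these changes was not tested. No paired analysis was possible because the labels carry no replicate numbers and the numbers used follow the order of the samples. Depth limits mt-Co2, mt-Co3 and mt-Atp6, whose 4 to 23 counts per library include sampling noise larger than the changes of the abundant members.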
